A study of Mus musculus with 6 samples.

Results

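The genes of the mitochondrial ribosomal proteins were taken as all genes with a mouse symbol of *Mrpl* or *Mrps*, a number and at most 1 letter from a to c, without pseudogenes. This rule found 78 of the 55401 genes in the count tables, 49 of them *Mrpl* and 29 *Mrps*, spread over 17 chromosomes. They were measured in total RNA from the subcutaneous white fat (scWAT) of 3 YT-FF and 3 YT-AKO mice, which were males of 8 weeks kept at 22 °C. All 6 mice carried floxed *Yap* and *Taz* alleles. The YT-FF mice, which the labels call WT, had no Cre, and the YT-AKO mice carried Cre driven by *Adipoq*, a gene of mature adipocytes, so that other cells of the depot keep both genes. The labels do not say whether tissue of several mice was pooled. Library totals ran from 17740987 to 21838493 counted fragments.

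Mitochondria keep a small genome of their own, and the few proteins it encodes, nearly all subunits of the respiratory chain and ATP synthase, are made on a dedicated ribosome inside the organelle. Its rRNAs are mitochondrial, but all of its proteins are encoded in the nucleus, made in the cytosol and imported. The large subunit, built mostly from *Mrpl* products, forms peptide bonds and holds the exit tunnel, and the small subunit, built mostly from *Mrps* products, binds mRNA and decodes it. In adipose tissue it is abundant where mitochondria are dense, as in brown and beige adipocytes.

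The targeted genes did not both follow the labels. *Yap1* fell from 64.3 ± 6.34 to 32.7 ± 4.53 CPM (counts scaled to library size with edgeR's TMM factors, mean ± SD, n = 3 per group; log2 fold change -0.98, adjusted p = 0.0179, edgeR). *Wwtr1*, the gene of TAZ, went against the label, with 156 ± 21.5 CPM in the YT-AKO libraries and 84.1 ± 12.7 CPM in YT-FF (log2 fold change 0.89, adjusted p = 0.0220, edgeR). By immunoblot the study reports a clear loss of YAP and TAZ protein in YT-AKO scWAT, which RNA counts do not measure. Counts of whole genes do not show a deleted exon, so the label of YT-AKO was taken as given and every direction below rests on it. YT-AKO 2 stood apart, with a TMM factor of 0.777 against 0.954 and 0.955 in YT-AKO 1 and 3. Values without it are given for the main counts, the medians and the genes with the highest fold changes. Summed CPM of 10 adipocyte genes ran from 12929 to 18750 in YT-FF and from 21885 to 35655 in the libraries labelled YT-AKO, with 3 of 10 called higher and none at 0. For 10 beige and brown thermogenic genes the sums were 231 to 341 and 1886 to 3965, with 8 called higher. Both sums were highest in YT-AKO 2. Of 8 B cell genes 4 were called lower (sums 1044 to 1206 and 620 to 995), while 8 endothelial genes summed to 723 to 748 CPM in YT-FF and to 574 to 705 CPM in the other group, with YT-AKO 2 lowest and 1 gene called lower. The 8 macrophage genes summed to 1159 to 1329 and to 1644 to 2180 CPM, with YT-AKO 2 highest and 1 gene called higher. The 8 skeletal muscle genes summed to at most 436 CPM in YT-FF and to 3141 CPM in 1 library labelled YT-AKO, against 450 CPM in YT-AKO 2. For 8 fibroblast and progenitor genes the sums were 3927 to 4935 and 4638 to 7366 CPM, with 3 called higher and 1 lower. T cell and Schwann cell genes, 8 each, had sums that overlapped between the groups, with 1 T cell gene called lower. Of all tested genes 12.6% were called higher and 9.01% lower (adjusted p under 0.05, edgeR). The part of these cell types in the results below was not tested, and in bulk tissue fewer cells of a type and less RNA per cell cannot be told apart.

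The mitochondrial ribosomal protein genes were higher together in the libraries labelled YT-AKO. Of 77 genes that passed the filter on low counts, edgeR's quasi-likelihood test called 69 higher and 0 lower (adjusted p under 0.05), against 12.6% higher and 9.01% lower among the 16807 tested genes, and 74 of the 77 were higher at an unadjusted p under 0.05, against 22.2% of all tested genes. All 77 had a positive log2 fold change, from 0.39 to 2.03, and 55 were beyond 1. Of the 16807 tested genes 8241 were positive and 2109 beyond 1. The median was 1.29 over the 77 genes (2.44-fold) and -0.021 over all tested genes. In 74 of the 77 the lowest library labelled YT-AKO lay above the highest YT-FF library, which was so for 25.7% of all tested genes. DESeq2 called 73 of the 77 higher (15.0% of all genes it tested). The calls leaned on the 3 YT-FF libraries: 0 of 77 passed without YT-FF 1 or without YT-FF 2, where the smallest adjusted p were 0.110 and 0.111, and 20 passed without YT-FF 3. No gene at all was called higher in the first pair of fits, against 2121 with all 6 libraries and 704 without YT-FF 3, while 71, 72 and 75 members were higher at an unadjusted p under 0.05 without YT-FF 1, 2 and 3, against 15.2%, 14.6% and 18.9% of all tested genes. Without YT-AKO 2, 75 of the 77 passed (16.9% of all genes) and their median was 0.92.

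**Figure D1:**
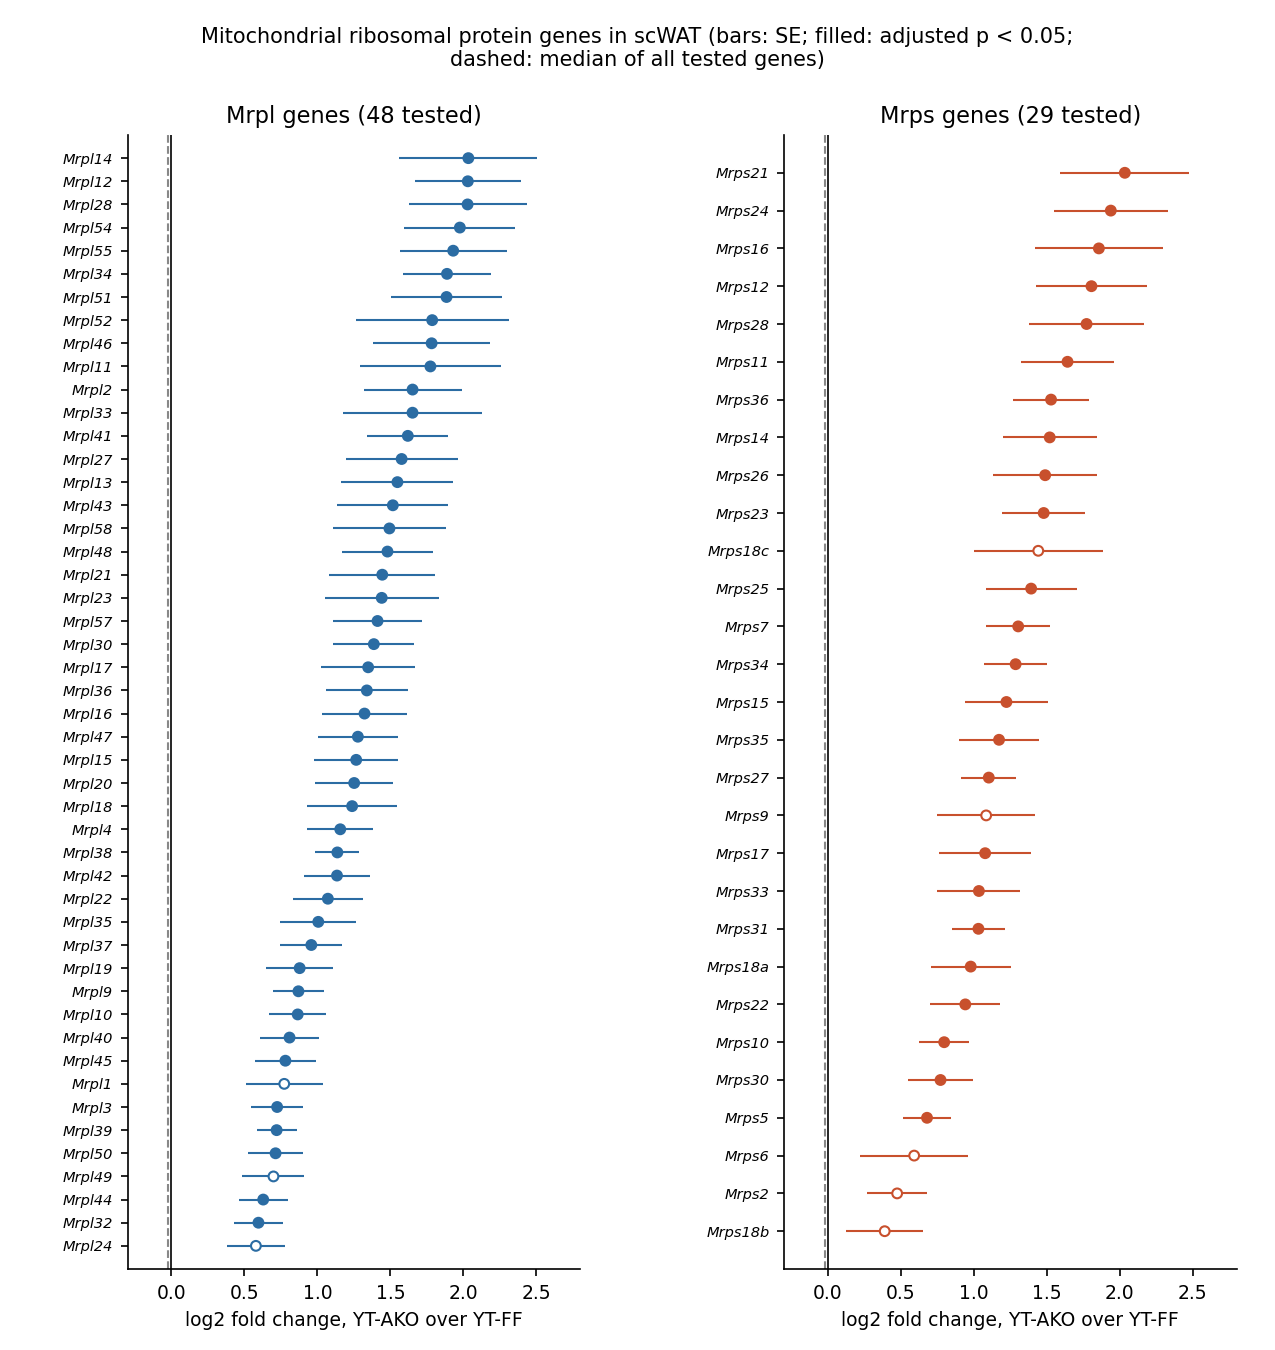
Log2 fold change (x axis, no unit) of each tested *Mrpl* gene (left, 48 genes) and *Mrps* gene (right, 29 genes), libraries labelled YT-AKO over YT-FF, with bars of 1 SE, filled points at an adjusted p under 0.05 and a dashed line at the median of all tested genes. Every point lies to the right of 0, from 0.39 for *Mrps18b* to 2.03 for *Mrpl14*, and the 8 open points are 3 *Mrpl* and 5 *Mrps* genes.

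Counted by library, the 78 genes took 0.249%, 0.242% and 0.276% of all fragments in YT-FF 1, 2 and 3, and 0.396%, 0.661% and 0.423% in YT-AKO 1, 2 and 3. The group means were 0.255 ± 0.0178% and 0.493 ± 0.146% (SD, n = 3), and the groups did not overlap. Relative to the YT-FF mean, the median of the 77 tested genes stood at 1.78-fold in YT-AKO 1, 3.58-fold in YT-AKO 2 and 1.95-fold in YT-AKO 3. YT-AKO 1 and 3 were thus close to each other and far from YT-AKO 2, which was the highest of the 6 libraries for 74 genes. It was also the library with the highest sums of adipocyte and thermogenic genes.

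**Figure D2:**
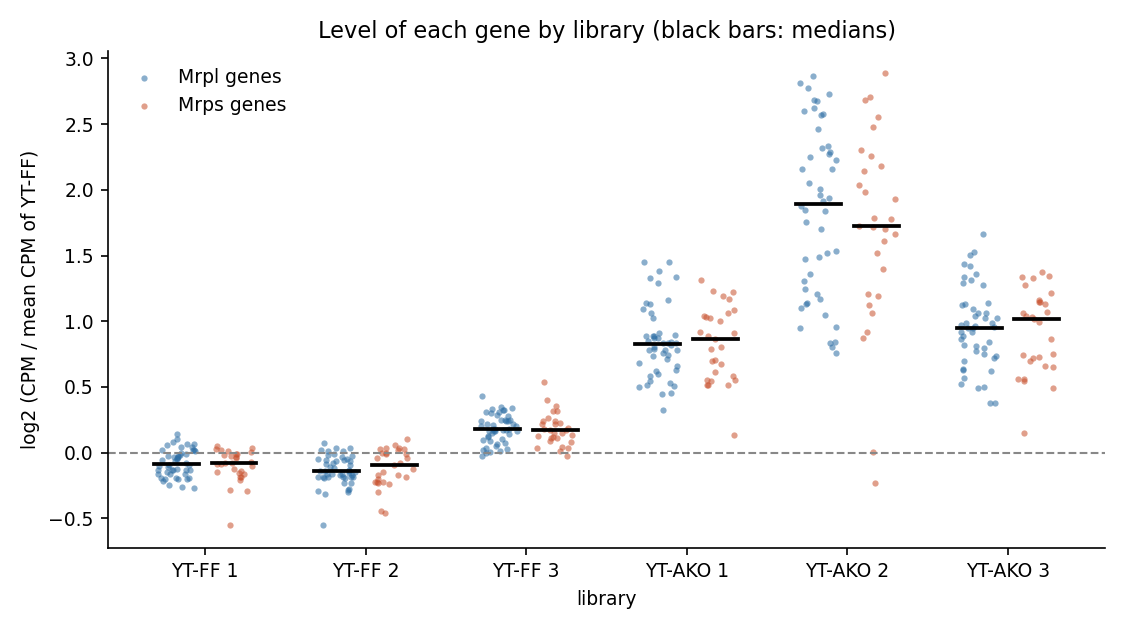
Level of each tested gene in each library (x axis) as log2 of its CPM over its mean CPM in YT-FF (y axis), blue for *Mrpl* and red for *Mrps*, with black bars at the medians. The YT-FF libraries lie around 0, YT-AKO 1 and 3 around 1 and YT-AKO 2 higher, apart from *Mrps2* and *Mrps18b* at about 0 or below.

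Both subunits had most of their genes called higher. Of 48 tested *Mrpl* genes 45 rose, with a median log2 fold change of 1.33, and of 29 *Mrps* genes 24 rose, with a median of 1.22. The difference of the medians, 0.11, was about as large as its spread between libraries of one group (SD 0.0976) and turned to -0.043 without YT-AKO 2, where the medians were 0.91 and 0.95. The ratio of all *Mrpl* to all *Mrps* counts was 1.96, 1.91 and 1.93 in YT-FF and 1.97, 2.01 and 2.00 in the libraries labelled YT-AKO. Symbols do not follow the structure throughout, since the products of *Mrps18a* and *Mrps30* sit in the large subunit and *Mrps36* encodes a component of the 2-oxoglutarate dehydrogenase complex. Counted by structure, 47 of 50 large-subunit genes rose (median 1.30) and 21 of 26 small-subunit genes (median 1.25). Proteins with no counterpart in the bacterial ribosome, called mitochondria-specific here, were 29 of the tested genes, of which 28 rose (median 1.17). Of 47 with a homologue in the bacterial ribosome 40 rose (median 1.30). Without YT-AKO 2 the order of these medians turned, to 0.93 for mitochondria-specific genes and 0.89 for the others. That of the large and small subunits by structure turned too, to 0.90 and 0.95. The 5 small-subunit genes that missed the threshold were all among the 17 with such a homologue in that subunit.

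In the large subunit the highest fold changes belonged to *Mrpl14* at the subunit interface and *Mrpl12* of the factor-binding stalk. *Mrpl14*, whose product faces the small subunit, was at 17.6, 12.3 and 24.4 CPM in YT-FF and at 44.3, 132 and 45.9 CPM in YT-AKO 1, 2 and 3. All libraries labelled YT-AKO were above all YT-FF libraries, and YT-AKO 2 was far above the rest (log2 fold change 2.03, SE 0.47, adjusted p = 0.0274, edgeR; 1.32 without YT-AKO 2). *Mrpl12*, the stalk protein that recruits translation factors and also binds the mitochondrial RNA polymerase, was at 65.0, 51.1 and 69.9 CPM and at 170, 412 and 179 CPM. The groups again did not overlap (log2 fold change 2.03, SE 0.36, adjusted p = 0.0185; 1.49 without YT-AKO 2). *Mrpl11* and *Mrpl10*, which form the base of the stalk, rose by 1.77 (SE 0.48, adjusted p = 0.0395) and 0.87 (SE 0.19, adjusted p = 0.0260), and without YT-AKO 2 by 0.94 and 0.71. *Mrpl28* and the mitochondria-specific *Mrpl54* and *Mrpl55* rose by 2.03, 1.98 and 1.93 (SE 0.40, 0.38 and 0.37), and by 1.38, 1.44 and 1.40 without YT-AKO 2.

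Of 5 genes listed for the polypeptide exit tunnel 4 rose, where 12.6% of all tested genes were called higher. The list leaves out *Mrpl44*, also at the tunnel exit, which is given below. *Mrpl23* rose by 1.44 (SE 0.39), *Mrpl47* by 1.28 (SE 0.27), *Mrpl22* by 1.07 (SE 0.24) and *Mrpl45*, which anchors the ribosome at the inner membrane, by 0.78 (SE 0.21). Without YT-AKO 2 their log2 fold changes were 0.79, 0.96, 0.82 and 0.54. *Mrpl24* had 57.8, 57.7 and 59.0 CPM in YT-FF and 72.9, 112 and 75.8 CPM in the libraries labelled YT-AKO. Its groups did not overlap, but it did not pass the test (log2 fold change 0.58, SE 0.20, adjusted p = 0.0672, edgeR), and 26.3% of its exon bases lie opposite exons of *Rrnad1*. *Mrpl44*, at the tunnel exit and homologous to RNase III, and *Mrpl50* rose by 0.63 and 0.71, and *Mrpl32*, whose product is cut by the inner-membrane AAA protease before assembly, by 0.60 (21.8, 22.8 and 23.1 CPM against 32.6, 40.5 and 29.3 CPM). *Mrpl49* had a log2 fold change of 0.70 at an adjusted p of 0.0514. *Mrpl58*, a release factor of the large subunit that frees peptides from stalled ribosomes, rose by 1.49 (SE 0.39, adjusted p = 0.0355), and by 0.85 without YT-AKO 2.

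In the small subunit, *Mrps21* was at 28.4, 32.7 and 35.8 CPM in YT-FF and at 75.6, 239 and 82.1 CPM in YT-AKO 1, 2 and 3 (log2 fold change 2.03, SE 0.44, adjusted p = 0.0244, edgeR; 1.29 without YT-AKO 2). *Mrps24*, at the mRNA entry, rose by 1.94 (30.5, 28.7 and 41.9 CPM against 83.7, 216 and 87.2 CPM), with no overlap between the groups, and by 1.34 without YT-AKO 2. *Mrps16*, *Mrps12*, a part of the decoding centre, and *Mrps28* rose by 1.86, 1.81 and 1.77 (1.11, 1.20 and 1.23 without YT-AKO 2), while *Mrps5*, also at the mRNA entry, rose by 0.68 (SE 0.16, adjusted p = 0.0295). *Mrps30*, in the large subunit despite its symbol, rose by 0.77 and *Mrps36*, which is no part of the ribosome, by 1.53.

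Among the *Mrps* genes were the 3 whose groups overlapped. *Mrps2* was at 28.2, 26.3 and 29.8 CPM in YT-FF and at 44.8, 28.1 and 44.3 CPM in YT-AKO 1, 2 and 3 (log2 fold change 0.47, SE 0.21, adjusted p = 0.126, edgeR). *Mrps18b* was at 12.9, 15.3 and 15.9 CPM and at 21.0, 12.5 and 24.2 CPM (log2 fold change 0.39, SE 0.26, adjusted p = 0.292). For both, YT-AKO 1 and 3 were above every YT-FF library and YT-AKO 2 was within or below them, the opposite place from the one it took in 74 of the 77 genes. Without YT-AKO 2 both passed the test, at log2 fold changes of 0.66 (adjusted p = 0.00518) and 0.62 (adjusted p = 0.0200). *Mrps6* had 42.7 CPM in YT-FF 3 against 24.2 and 21.4 CPM in YT-FF 1 and 2, and 32.2, 68.1 and 32.6 CPM in the libraries labelled YT-AKO (log2 fold change 0.59, SE 0.37, adjusted p = 0.263; 0.14 without YT-AKO 2). The 3 paralogues of *Mrps18* had different values with all 6 libraries: *Mrps18a* rose by 0.98 (SE 0.27, adjusted p = 0.0414), *Mrps18c* had 1.44 (SE 0.44, adjusted p = 0.0527) and *Mrps18b* 0.39, and these differences between genes were not tested. Without YT-AKO 2 they were nearly equal, at 0.61, 0.68 and 0.62. Exons of *Mrps18b* and *Mrps18c* overlap those of other annotated genes over 30.5% and 23.2% of their bases, and fragments in such stretches could not be assigned.

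**Figure D3:**
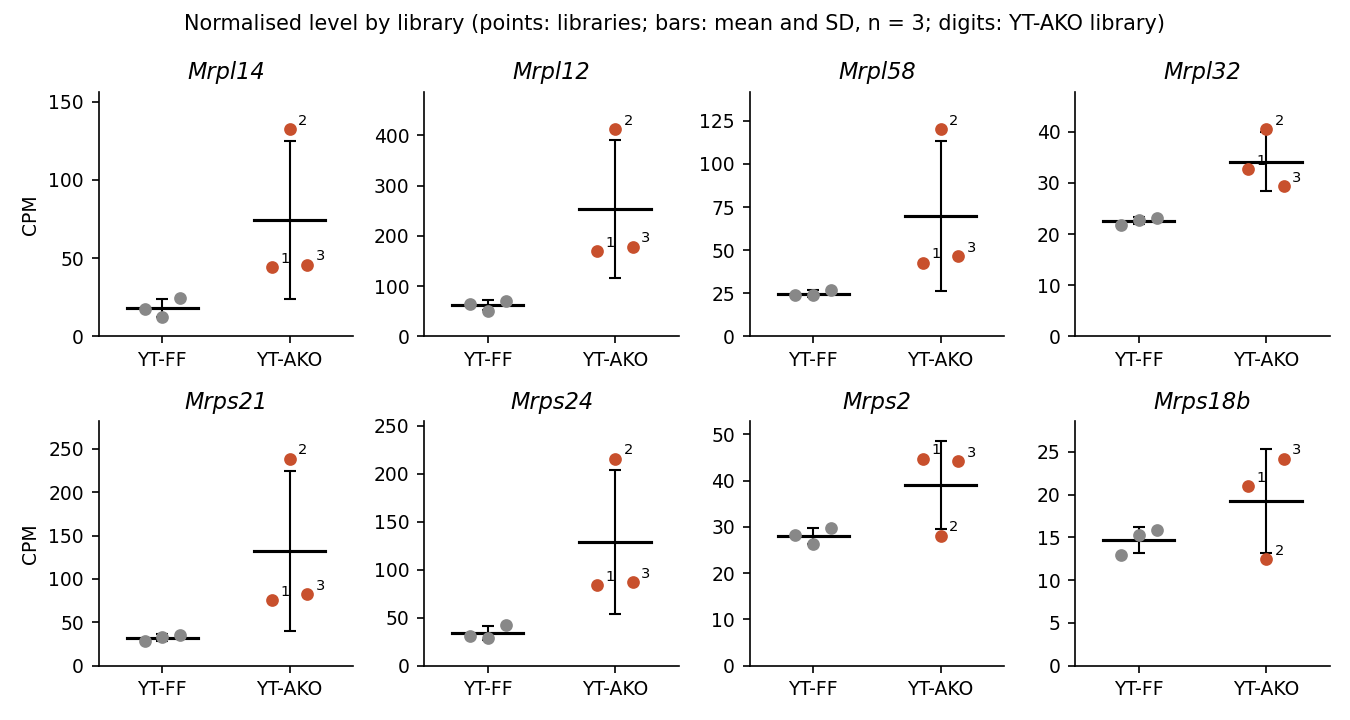
CPM (y axis, from 0) of 8 genes in the 3 YT-FF libraries (grey) and the 3 libraries labelled YT-AKO (red, with the number of the library), with black bars for mean and SD. YT-AKO 2 is the top point for *Mrpl14*, *Mrpl12*, *Mrpl58*, *Mrpl32*, *Mrps21* and *Mrps24*, and the lowest of its group for *Mrps2* and *Mrps18b*.

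The gene that could not be tested, *Mrpl53*, had 0 counts in all 6 libraries. Of its exon bases 88.0% are shared with other genes, the largest part with *Gm42688* on the same strand. Fragments in the shared bases would be left out as ambiguous, but the reason for the 0 counts was not tested. Nothing can be said of its level. Large shares of *Mrps34* (77.8%, the largest part with *Mapk8ip3*) and *Mrps25* (69.8%, with *Nr2c2*) also lie in exons of other genes. Both named partners are on the opposite strand. The 43 members that shared under 5% of their exon bases and under 5% of their 50-base words with any other gene gave 39 higher calls and a median of 1.22. Genes of the mitochondrial genome could not be set beside these nuclear genes, since all 37, the 13 mRNAs and 2 rRNAs included, are listed at 0 in every library.

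Levels were compared between genes only per length, as transcript levels scaled by the summed exon length (TPM). In YT-FF the tested members ran from 9.57 ± 0.966 TPM for *Mrps25* to 166 ± 20.7 TPM for *Mrpl34* (mean ± SD, n = 3), with a median of 42.7 TPM. *Mrps21* at 166 ± 15.6 TPM and *Mrpl12* at 153 ± 18.6 TPM did not differ from *Mrpl34* beyond these spreads, and neither did *Mrpl47* at 11.0 ± 1.28 TPM, the lowest *Mrpl* gene, from *Mrpl19* at 11.1 ± 0.456 TPM. The order depends on which exons are counted. *Mrpl33* has 7326 annotated exon bases but a principal transcript of 478 bases, and its level was 16.0 TPM over the first and 175 TPM over the second. Over principal transcripts *Mrps21* was highest, at 180 ± 13.9 TPM, and Spearman's rho between both orders was 0.71 across the 77 genes, which share libraries and are not independent.

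On the TPM scale, on which each level is a share of all transcripts by number, the medians of the members and of all tested genes were both lower. The median log2 ratio of mean TPM was 0.58 for *Mrpl* and 0.48 for *Mrps* genes, where the median of all tested genes was -0.66, and without YT-AKO 2 these were 0.45, 0.49 and -0.47. Of the 77 members 70 had a higher mean TPM in the libraries labelled YT-AKO (44 *Mrpl* and 26 *Mrps*). Among all 16807 tested genes this was so for 3471. *Mrpl24*, with 98.0 ± 3.39 TPM in YT-FF and 89.6 ± 2.15 TPM in the other group, was among the 7 that did not. Fold changes also went with gene length in these libraries. Across all tested genes Spearman's rho of log2 fold change with summed exon length was -0.38, across the members -0.41, and the members had a median of 2533 exon bases against 3888. After a correction for gene length in each library 54 of the 77 were called higher (9.57% of all genes), with a median of 1.15 beside 0.077 for all tested genes, and rho among the members was 0.19. Members at or under the median length then had a median of 1.10 and the longer ones of 1.30, the reverse of 1.44 and 1.15 without the correction.

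**Figure D4:**
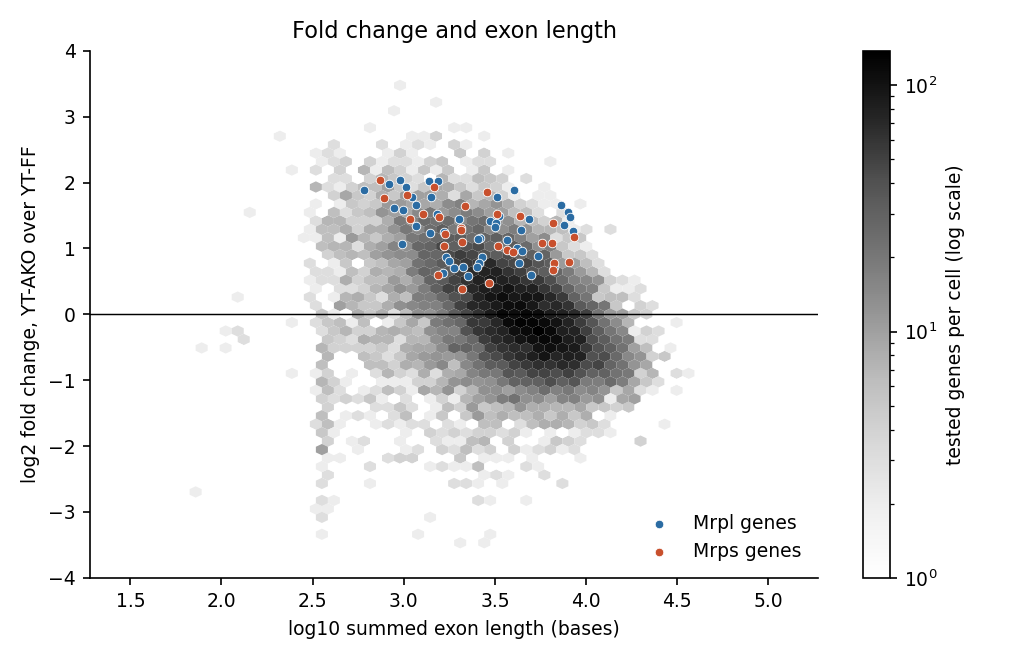
Log2 fold change (y axis) against log10 of the summed exon length in bases (x axis), with all tested genes as grey cells (darker for more genes, log scale) and the members as points, blue for *Mrpl* and red for *Mrps*. The 36 genes with a fold change beyond 4 lie off the axis, and the members lie between 0.39 and 2.03 at all lengths.

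Short sequence words were counted in the promoters of the members. RefSeq promoters (GRCm38.p6, 250 bases before the annotated start and 50 after it) were at hand for 69 of the 78 members and searched on both strands for NRF1, an activator of nuclear genes of respiration (GCGCATGCG), for the ETS family, which includes GABPA (CCGGAAG), and for YY1 (AAGATGGCG). Matches to NRF1 on both strands can overlap, since the word is nearly its own reverse complement. ETS words were found in 26 of the 69 members (37.7%), against 18.2% of 11767 tested genes and 9.93% of all 27025 genes in the table. NRF1 words were found in 7 (10.1%, against 3.68% and 1.95%) and YY1 words in 8 (11.6%, against 3.15% and 1.64%). At least 1 of these words stood in 36 members, or 52.2%, against 23.3% of tested genes. The word of TEAD, the DNA-binding partner of YAP and TAZ (GGAATG), was in 8 members (11.6%), against 14.7% of tested genes, the ERR word (AAGGTCA) in 4 (5.80%, against 4.15%) and the TATA word (TATAAA) in 5 (7.25%, against 9.45%). A match is only a run of letters, not evidence of binding, and member promoters were richer in G and C (median 58.7% against 52.7% of all promoters).

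The tested members with an ETS word had a median log2 fold change of 1.48 (25 genes) and those without of 1.13 (43 genes), while for NRF1 the medians were 0.87 (7 genes) and 1.39 (61 genes), for YY1 1.12 (8 genes) and 1.34 (60 genes), and for TEAD 0.86 (8 genes) and 1.34 (60 genes). For ERR they were 1.68 (4 genes) and 1.29 (64 genes), and for TATA 1.48 (5 genes) and 1.28 (63 genes). These are descriptions over genes of the same libraries, with no test. The promoters of 6 members are shown with the words of NRF1, ETS and YY1 in capitals. Words of TEAD, ERR and TATA were left unmarked. *Mrpl14* (chr17:45686099-45686398 (plus strand)) and *Mrps21* (chr3:95871465-95871764 (minus strand)) had the highest fold change in each subunit. *Mrpl36* (chr13:73330759-73331058 (plus strand)) and *Mrps11* (chr7:78782881-78783180 (plus strand)) start head to head with another gene that rose. *Mrpl22* (chr11:58171414-58171713 (plus strand)) held words of NRF1 and ETS near each other, and so did *Mrps18b* (chr17:35916391-35916690 (minus strand)), farther apart, which had the lowest fold change of all. Each is written 5′ to 3′ on the strand of its gene, with the start of the gene at base 251.
Mrpl14: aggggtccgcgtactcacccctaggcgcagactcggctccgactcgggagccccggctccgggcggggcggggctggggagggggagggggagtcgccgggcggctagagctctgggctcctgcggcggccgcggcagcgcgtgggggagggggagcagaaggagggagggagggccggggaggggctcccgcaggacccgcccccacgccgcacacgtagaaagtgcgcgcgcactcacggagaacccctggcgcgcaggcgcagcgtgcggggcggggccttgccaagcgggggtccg
Mrps21: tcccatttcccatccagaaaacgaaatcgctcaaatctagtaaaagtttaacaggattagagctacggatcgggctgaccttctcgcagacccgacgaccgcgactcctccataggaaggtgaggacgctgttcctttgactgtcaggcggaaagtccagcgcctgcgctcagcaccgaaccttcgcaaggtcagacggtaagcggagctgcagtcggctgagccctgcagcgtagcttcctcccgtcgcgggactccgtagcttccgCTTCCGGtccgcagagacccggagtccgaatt
Mrpl36: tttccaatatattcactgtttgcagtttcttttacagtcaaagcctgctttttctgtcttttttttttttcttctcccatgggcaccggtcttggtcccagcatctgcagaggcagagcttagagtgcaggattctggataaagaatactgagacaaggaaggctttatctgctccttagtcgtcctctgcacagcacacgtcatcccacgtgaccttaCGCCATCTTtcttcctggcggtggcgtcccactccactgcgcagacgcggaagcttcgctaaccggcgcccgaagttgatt
Mrps11: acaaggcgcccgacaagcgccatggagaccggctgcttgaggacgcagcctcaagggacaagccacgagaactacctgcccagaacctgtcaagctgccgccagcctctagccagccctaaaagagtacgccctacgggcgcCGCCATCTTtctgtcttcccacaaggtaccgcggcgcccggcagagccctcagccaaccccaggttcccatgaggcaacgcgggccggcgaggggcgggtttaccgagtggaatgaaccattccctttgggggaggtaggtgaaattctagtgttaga
Mrpl22: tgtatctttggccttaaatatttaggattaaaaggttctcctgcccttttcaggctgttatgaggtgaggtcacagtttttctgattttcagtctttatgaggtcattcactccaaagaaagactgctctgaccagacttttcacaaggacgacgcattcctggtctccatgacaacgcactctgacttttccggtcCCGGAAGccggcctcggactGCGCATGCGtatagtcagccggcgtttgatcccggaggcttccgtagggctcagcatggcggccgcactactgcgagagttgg
Mrps18b: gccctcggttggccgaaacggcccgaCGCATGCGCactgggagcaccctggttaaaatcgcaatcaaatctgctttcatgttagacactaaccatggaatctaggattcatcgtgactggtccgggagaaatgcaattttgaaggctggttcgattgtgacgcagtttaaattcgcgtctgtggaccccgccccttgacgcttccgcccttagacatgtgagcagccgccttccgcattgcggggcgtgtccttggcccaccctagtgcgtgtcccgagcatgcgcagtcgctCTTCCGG
Of the words of NRF1, ETS and YY1, *Mrpl14* has none, *Mrps21* has ETS and *Mrpl36* and *Mrps11* have YY1. Counting only these marked words, *Mrpl22* and *Mrps18b* carry the same pair, NRF1 and ETS, and had log2 fold changes of 1.07 and 0.39.

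Many members share their promoter region with a gene on the other strand. Of the 78, 33 (42.3%) had a protein-coding gene that starts head to head within 1000 bases, against 14.8% of tested protein-coding genes. The tested neighbours that were no members themselves numbered 28, of which 7 were called higher and 0 lower, a share of 25.0% where the background was 12.6%, and their median log2 fold change was 0.026. *Ndufs6*, a subunit of complex I that starts next to *Mrpl36*, rose by 3.09 (adjusted p = 0.0227, edgeR) and *Mrpl36* by 1.34 (adjusted p = 0.0233). *Ndufb5*, another subunit of complex I, rose by 1.70 beside *Mrpl47* with 1.28, and *Mrpl46* and *Mrps11*, a pair of members, rose by 1.78 and 1.64. Other neighbours did not follow: *Mrpl14* rose by 2.03 where *Tmem63b* had 0.098 (adjusted p = 0.638), and *Mrpl51* by 1.88 where *Ncapd2* had -0.33 (adjusted p = 0.144).

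Genes of the other lists of mitochondrial translation were set beside the members. Among all 16807 tested genes 12.6% were called higher. Of 5 mitoribosomal proteins with other symbols 4 rose (median 0.99), namely *Chchd1* by 1.64, *Aurkaip1* by 1.43, *Gadd45gip1* by 0.99 and *Dap3*, a GTP-binding protein of the small subunit, by 0.85. *Ptcd3*, also of the small subunit, had a log2 fold change of 0.25 (SE 0.18, adjusted p = 0.326, edgeR), with YT-AKO 2 at 49.8 CPM, inside the YT-FF range of 44.1 to 55.5 CPM, and YT-AKO 1 and 3 at 69.8 and 63.1 CPM. Of 29 genes for ribosome assembly and rRNA modification 13 rose and none fell (median 0.62). The ends of that list were *Mpv17l2*, which binds the large subunit, at 2.24 (SE 0.37, adjusted p = 0.0180), and *Tfb1m*, an rRNA methyltransferase, at -0.22 (adjusted p = 0.471). Of 22 mitochondrial aminoacyl-tRNA synthetases and partners 9 rose (median 0.58), from *Mars2* at -0.45 (adjusted p = 0.0913) to *Fars2* at 1.30 (adjusted p = 0.0180). Of 16 translation factors 4 rose (median 0.55), from *Mtfmt*, which formylates the initiator tRNA, at -0.12 to the elongation factor *Tsfm* at 1.37 (SE 0.28, adjusted p = 0.0223). Without YT-AKO 2 the medians of these 4 lists were 0.59, 0.52, 0.40 and 0.52. For comparison, 35 of 36 complex I subunits rose (median 1.94, or 1.41 without YT-AKO 2), as did 20 of 75 cytosolic ribosomal proteins (median 1.29, with 1 lower). The cytosolic genes had nearly the median of the mitochondrial ones but fewer calls. Of them, 54 of 75 were called without YT-AKO 2 (16.9% of all genes), at a median of 0.55, while DESeq2 with all libraries called 62 (15.0% of all genes). After the length correction edgeR called 0 of the 75 higher (smallest adjusted p 0.0503, median 1.06), with 49 higher at an unadjusted p under 0.05. In that fit 35 of the 36 complex I subunits were called higher (median 1.64). Of all tested genes 9.57% were called higher there, and 22.8% were higher at the unadjusted limit. No difference between these lists was tested.

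**Figure D5:**
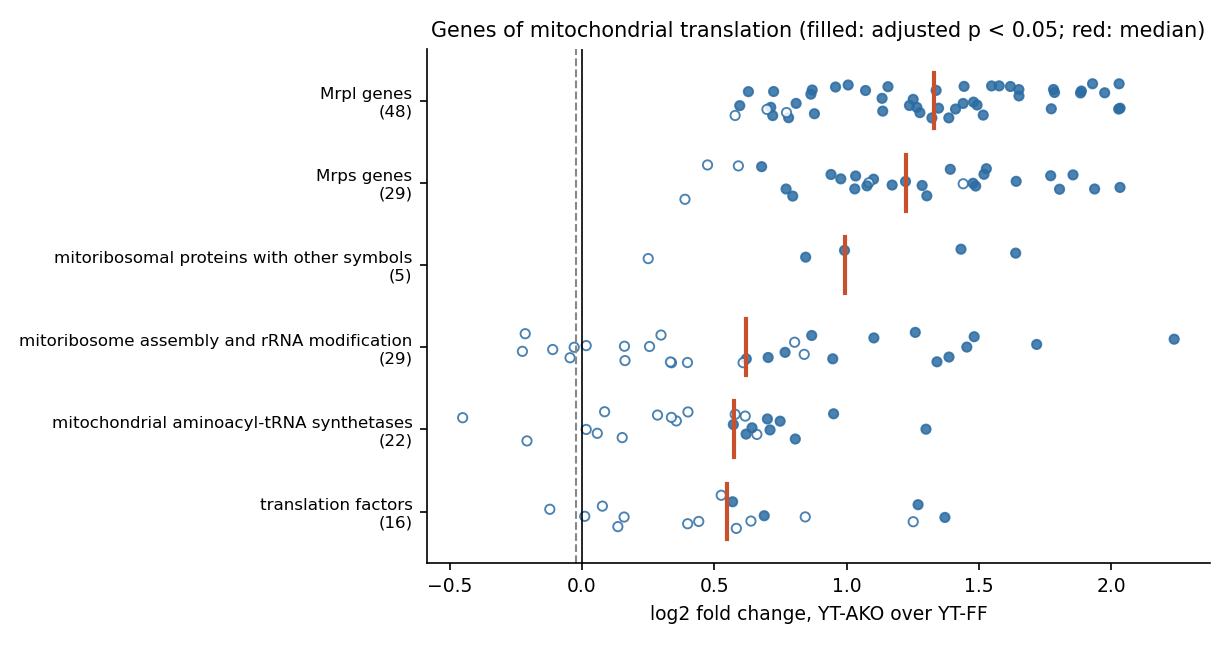
Log2 fold change (x axis) of the tested genes of 6 lists of mitochondrial translation (rows, with the number of genes), filled at an adjusted p under 0.05, with red bars at the list medians and a dashed line at the median of all tested genes. The medians fall from 1.33 for *Mrpl* to 0.55 for translation factors, and genes below 0 occur only in the lower 3 lists.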

How the data were processed

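Per the file headers and the study's methods, the authors aligned paired-end reads of total scWAT RNA to mm10 (GRCm38) with HISAT2 and counted fragments on GENCODE vM25 exons with featureCounts 2.0.1, without strand and without fragments that overlap several genes or align to several places. The deposited values are raw counts per gene. Symbols, gene types, transcript sequences and coding lengths came from GENCODE vM21, and 55141 of 55401 genes had a symbol. Exon overlaps and the starts of neighbouring genes used the coordinates of the counted exons, and promoter coordinates came from RefSeq. Members and lists were chosen with earlier results of these data known. Counts were fitted in R 4.3.3 with edgeR 4.0.16 (TMM, filterByExpr with a minimum of 10 counts and a total of 15, quasi-likelihood test, Benjamini-Hochberg over 16807 tested genes). DESeq2 1.42.0 and limma 3.58.1 (voom) were alternatives, with other normalizations and filters, a 6 df spline on exon length or GC content, a replicate block and each library left out. The biological coefficient of variation was 0.288. P-values measure only the spread between these mice, whose separate housing or preparation the labels do not describe. CPM used TMM factors, and TPM used exon lengths. Members were named by rule: the 5 highest and 5 lowest log2 fold changes and the highest and lowest TPM in each subunit, members not tested, the *Mrps18* paralogues, stalk and tunnel genes, and 4 genes chosen for their role. Others were named after their values were seen. Fits were tested on simulated data.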

Additional observations from a re-analysis of the deposited data

How the results depend on the processing

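The number of members called higher, 69, was between 50 and 73 under DESeq2, limma-voom, library totals, upper-quartile scaling, other low-count filters, robust estimation, and length or GC correction. Among all genes, higher calls ran from 1137 with library totals to 2843 with DESeq2 over these settings, against 2121 in the main fit. Members called ran from 0 to 75 with 1 library left out, where 0 to 2925 of all genes were called. At a log2 fold change beyond 1 with adjusted p limited to 0.01, 0 members were called, where DESeq2 gave 54. The smallest adjusted p of a member in the main fit was 0.0166. The study set the same limits for the upregulated genes of its enrichment analysis. All genes were not counted under this rule, so neither count can be set against a background. The replicate block called 0 of the 77 members (smallest adjusted p 0.0584) and had 74 higher at an unadjusted p under 0.05, against 18.4% of all tested genes, and with the length correction as well it called 0 and had 69, against 19.0%. The labels do not say whether the replicate numbers pair the libraries. As deviations from their group means, same-numbered libraries had correlations of 0.126, -0.118 and -0.0893, and 1 of 3 matched its own number best. With 3 libraries a group these values cannot settle whether libraries are paired. The *Mrpl* median of 1.33 ran from 0.91 to 1.52 and the *Mrps* median of 1.22 from 0.95 to 1.38 with 1 library left out. The *Mrps* median was 0.86 with library totals alone, which moved the median of all genes to -0.34. On the TPM scale the medians were 0.58 and 0.48, where the median of all tested genes was -0.66. With the length correction and without YT-AKO 2 they were 0.80 and 0.88. The *Mrpl* minus *Mrps* difference of 0.11 ran from -0.043 to 0.15 with 1 library left out, and was 0.0062 with the block and length correction and -0.080 with the length correction without YT-AKO 2. Signs turned for *Mrps6* (-0.094, length correction without YT-AKO 2), *Ptcd3* (-0.058, library totals), *Mars2* (0.047 with length correction, 0.043 with block and length correction, 0.041 with GC correction) and *Tfb1m* (0.039, GC correction), and the cause was not tested. The GC correction, the length correction without YT-AKO 2, the members with few shared bases, TPM over principal transcripts and the stricter DESeq2 rule were chosen after seeing the data. With 3 libraries a group, the SE of a member's log2 fold change was up to 0.52.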
